A study of Mus musculus with 144 samples.

Results

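The genes described here make, break down and sense prostaglandin E2 and leukotriene B4 in mouse blood leukocytes and spleen cells after injury or endotoxin. They are Ptgs1, Ptgs2, Ptges, Hpgd, Alox5, Alox5ap, Lta4h, Ltb4r1, Ptger2 and Ptger4, and their probe sets were taken from the array annotation where the gene was the single symbol given. This found 16 probe sets for 9 of the 10 genes, out of 18193 genes and 45037 probe sets that are not controls. The annotation used here lists no probe set for Ptgs1 alone, so that gene was not analysed here.

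Both pathways start from arachidonic acid that phospholipases free from membranes. Cyclooxygenases (Ptgs1, constitutive in many cells, and Ptgs2, induced by inflammatory signals) turn it into an intermediate that Ptges converts to prostaglandin E2, which acts on leukocytes through the cyclic AMP-raising receptors Ptger2 (EP2) and Ptger4 (EP4) and is inactivated by the dehydrogenase Hpgd. In neutrophils and other myeloid cells Alox5 (arachidonate lipoxygenase) works with its membrane partner Alox5ap (FLAP) to make leukotriene A4, Lta4h hydrolyses that to leukotriene B4, and Ltb4r1 (BLT1) is the receptor through which leukotriene B4 attracts neutrophils.

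RNA of single mice was measured on Affymetrix mouse 430 2.0 arrays. The injury models were burn and trauma-hemorrhage (tissue trauma with blood loss), each with its own sham mice, and in both, blood leukocytes and splenocytes were taken at 2 hr, 1 day, 3 days and 7 days. A further arm held blood leukocytes of C57BL/6J mice 2 hr and 1 day after lipopolysaccharide (LPS, bacterial endotoxin) or after sham treatment. For the injury models the labels used here give no strain, and for no group an age, sex, burn size, blood loss, LPS dose or genetic change. Blood of the injury arms came from cardiac puncture, and its red cells and those of the spleen were lysed. The labels conflict in places: titles of the trauma-hemorrhage blood arrays also hold the word burn, and descriptions of the 32 burn spleen arrays name the other injury, so the model follows the start of the title and, for blood, the description. Each of the 36 groups had 4 arrays, 144 in all, which limits how precise any value can be.

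Signals are MAS5 intensities on a linear scale, to which 32 was added before log2 values were tested in limma, so a fold is on the log2(signal + 32) scale and is smaller than the ratio of raw signals for dim genes. Called, higher, lower, rose or fell means a Benjamini-Hochberg adjusted p under 0.05 over all genes of that comparison, and ± is the SD of 4 arrays after a signal and the SE after a log2 change. Arrays of the injury arms were scaled to 1 trimmed mean, 500, while those of the LPS arm had trimmed means of 121 to 140.6, so raw signals cannot be set against each other between these arms. Arrays of a group correlated at r = 0.753 to 0.99. On 15 injury arrays the spiked hybridization controls read over 2 times the median of their tissue, a sign of a dim array after scaling, and these included 3 of 4 burn spleen arrays at 1 day, 3 of 4 trauma-hemorrhage blood arrays at 3 days and all 4 at 7 days. Replicates 1 and 2 of each model and tissue were hybridized on 1 day and replicates 3 and 4 on another, with every group on both days, and all 23 calls that could be split this way had the same sign on both.

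The stretches just before the start sites of 4 of these genes are shown as examples. They come from RefSeq (GRCm38.p6), run 5′ to 3′ on the gene's strand and end at the base before the start site. The table held 9 of the 10 genes and not Alox5ap. Capitals mark matches on either strand to TTNNGCAA (a C/EBP motif) or GAGGAA (the core of PU.1 sites, an Ets factor of myeloid cells), the latter read as TTCCTC on the other strand. No 2 marked matches of different motifs overlap here.
Ptgs2 at chr1:150099781-150100030 (plus strand), Hpgd at chr8:56294302-56294551 (plus strand), Alox5 at chr6:116461179-116461428 (minus strand) and Ltb4r1 at chr14:55765712-55765961 (plus strand).
Ptgs2: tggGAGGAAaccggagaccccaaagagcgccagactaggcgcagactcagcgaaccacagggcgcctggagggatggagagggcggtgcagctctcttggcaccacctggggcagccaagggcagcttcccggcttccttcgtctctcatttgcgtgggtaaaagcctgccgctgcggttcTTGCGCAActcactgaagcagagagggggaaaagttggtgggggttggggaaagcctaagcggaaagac
Hpgd: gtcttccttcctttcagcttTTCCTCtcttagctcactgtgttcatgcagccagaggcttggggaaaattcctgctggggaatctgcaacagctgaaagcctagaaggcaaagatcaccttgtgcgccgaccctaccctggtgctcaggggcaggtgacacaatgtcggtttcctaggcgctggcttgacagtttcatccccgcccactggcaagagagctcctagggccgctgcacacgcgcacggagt
Alox5: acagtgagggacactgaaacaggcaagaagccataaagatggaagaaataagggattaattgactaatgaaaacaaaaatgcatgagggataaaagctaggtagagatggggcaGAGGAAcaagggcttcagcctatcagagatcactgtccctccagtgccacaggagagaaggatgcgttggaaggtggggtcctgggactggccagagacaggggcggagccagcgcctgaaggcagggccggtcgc
Ltb4r1: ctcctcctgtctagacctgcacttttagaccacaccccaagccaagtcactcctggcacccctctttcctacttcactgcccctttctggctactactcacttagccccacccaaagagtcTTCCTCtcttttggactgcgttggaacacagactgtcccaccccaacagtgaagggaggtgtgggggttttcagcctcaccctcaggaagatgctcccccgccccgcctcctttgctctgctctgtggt
The Ptgs2 stretch holds TTNNGCAA once, at a palindrome that matches on both strands and begins 69 bases before the start site, and 9.56% of 32851 stretches of this length hold it. GAGGAA lies in all 4 stretches, 247 bases before the start of Ptgs2, 230 before Hpgd, 136 before Alox5 and 129 before Ltb4r1, and in 23.2% of all stretches. Of the members not shown, the stretches of Ptgs1, Ptges and Lta4h also hold it, and those of Ptger2 and Ptger4 do not. TATAAA (the TATA box), searched on both strands, matches none of the 4, while 12.4% of all stretches hold it. The same holds for TGACGT (part of the cyclic AMP response element), which 6.47% hold. These are matches of letters, not sites shown to be bound.

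The 9 genes were tested in 18 comparisons of an injured or LPS group with its own sham, 162 tests in all. Of these 24 were called, 13 higher and 11 lower. Most rises were of leukotriene genes, above all Alox5ap (6 of 18 comparisons), and more than any other gene it was Hpgd that fell (6 of 18). All 9 genes passed the filter on low values in every fit. In bulk samples, less RNA of a gene per cell and fewer of the cells that make it cannot be told apart.

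In burn blood 0, 5, 1 and 2 of the 9 genes were called at 2 hr, 1 day, 3 days and 7 days, where 2.93%, 25.4%, 1.09% and 1.94% of 14643 genes were. In trauma-hemorrhage blood the counts were 1, 4, 2 and 0, against 3.26%, 17.1%, 12.4% and 8% of all genes. Burn spleen gave 0, 2, 1 and 2 against 4.79%, 49.9%, 0.556% and 16.3% of 13497 genes, so the 2 calls at 1 day are fewer than the background share of 9 genes would give. Trauma-hemorrhage spleen gave 2, 1, 0 and 0 against 3.96%, 0.852%, 7.56% and 7.85%. LPS blood gave 1 at 2 hr and 0 at 1 day, where 1.88% and 0% of 11695 genes were called in limma. At 1 day 1273 genes had an unadjusted p under 0.05, where 585 would be expected without any effect. The median log2 change of the 9 genes was highest in burn blood at 1 day (0.63, against -0.01 over all genes) and lowest in burn spleen at 1 day (-0.56, against 0.01).

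**Figure D1:**
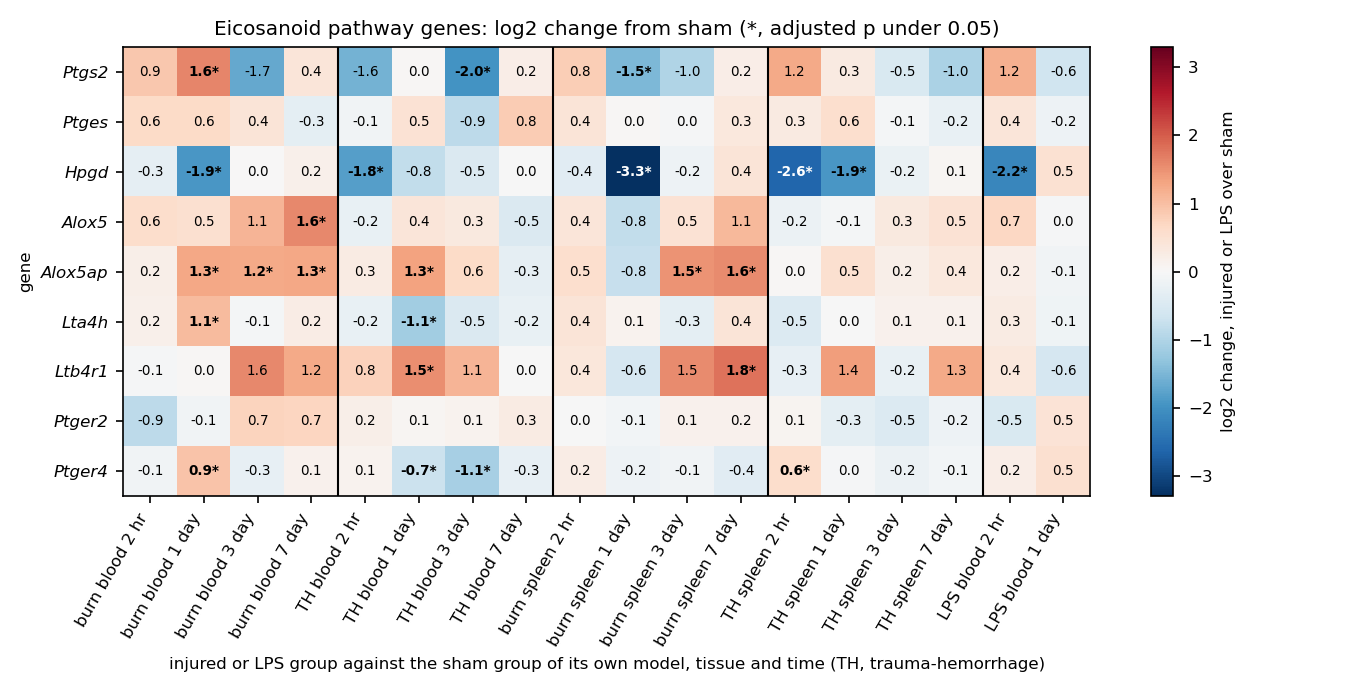
Log2 change of each measured gene (rows) in each of the 18 comparisons with sham (columns), with red for higher and blue for lower than sham, and an asterisk for an adjusted p under 0.05. The row of Hpgd holds 6 asterisks, all blue, and the row of Alox5ap holds 6, all red.

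Ptgs2, the inducible cyclooxygenase, was higher in burn blood at 1 day and lower in trauma-hemorrhage blood at 3 days and in burn spleen at 1 day. At 1 day after burn its signal in blood was 3108, 3477, 3272 and 2389 on the 4 injured arrays and 1495, 518, 854 and 1296 on the shams, and the groups did not overlap. The log2 change was 1.62 ± 0.61, a 3.07-fold rise (adjusted p = 0.0437). This call stands close to the threshold. It was lost on leaving out any array except sham array 1 or 4 (log2 change 1.33 to 1.73, adjusted p = 0.0524 to 0.157). It was also lost with a pseudocount of 1 (adjusted p = 0.0685), no filter (0.0522), every probe set tested (0.0502) or the mean of both probe sets (log2 change 1.04, adjusted p = 0.0729).

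In the spleen of the same model and time Ptgs2 went the other way. The injured arrays read 691, 1661, 506 and 595 and the shams 1392, 1602, 3278 and 3134, a log2 change of -1.47 ± 0.56 (2.77-fold lower, adjusted p = 0.026), with 1 injured array inside the sham range. The change in blood minus that in spleen was 3.09 ± 0.86 on the log2 scale (adjusted p = 0.00965, in a comparison where 12.4% of 15637 genes were called). That fit took blood and spleen arrays as independent, and whether they share mice was not checked. The spleen call was lost without injured array 1, 3 or 4 or sham array 3 or 4 (log2 change -1.42 to -1.28, adjusted p = 0.0527 to 0.0818). It was lost too with a pseudocount of 1 (adjusted p = 0.0563), without the dim arrays (log2 change -1.83, 0.167) and with the mean of both probe sets (log2 change -0.45, 0.344). The difference between tissues was also lost without the dim arrays (3.45, adjusted p = 0.119) and with the mean of both probe sets (1.49, 0.0739).

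In trauma-hemorrhage blood at 3 days Ptgs2 read 446, 17.3, 139 and 42.8 on the injured arrays and 198, 813, 659 and 516 on the shams. Array 1 lay inside the sham range and the other 3 below it, and the log2 change was -1.98 ± 0.61 (3.95-fold lower, adjusted p = 0.0261, where the median of all genes was -0.21). Injured arrays 1, 2 and 4 were dim, and without dim arrays, which leaves 1 injured array, the log2 change was -1.61 (adjusted p = 0.643). Leaving out injured array 2 or 4 or sham array 2, 3 or 4 also ended the call (-1.96 to -1.51, adjusted p = 0.0511 to 0.155), and leaving out injured array 1 gave -2.60. The call also ended with a pseudocount of 100 (-1.47, adjusted p = 0.0645), the mean of probe sets (-0.87, 0.191), the control level as a covariate (-1.61, 0.14) and a fit on these 2 groups alone (0.124).

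The level of Ptgs2 also varied between sham groups, most at 2 hr. In burn sham blood at 2 hr it read 5555, 6615, 3123 and 1205, beside 5774, 5451, 6792 and 7601 after burn, so that sham arrays 1 and 2 lay as high as the injured ones (log2 change 0.88 ± 0.61, adjusted p = 0.573). In trauma-hemorrhage sham blood at 2 hr it ran from 606 to 6338. In spleen at that time 1 sham array (911) stood well above the others (77.7 to 169), without which the change there was called (1.90, adjusted p = 0.0479). At 3 days after burn all 4 blood arrays (582 to 908) lay below all 4 shams (1534 to 3305), yet the log2 change of -1.68 ± 0.61 was not called (adjusted p = 0.248) in the fit over all blood arrays, while a fit on these groups alone called it (adjusted p = 0.000317). In burn spleen at 3 days the injured arrays (313 to 557) likewise lay below the shams (770 to 1050), not called (-1 ± 0.56, adjusted p = 0.624, and 0.0281 with these groups alone). The change from sham differed over the 4 times after burn both in blood (adjusted p = 0.0248, where 14.1% of genes did) and in spleen (adjusted p = 0.0459, where 45.1% did). After LPS the arrays read 887, 1373, 1038 and 876 at 2 hr against 31.8, 912, 1350 and 564 in the shams, not called (log2 change 1.17 ± 0.62, adjusted p = 0.404). The second Ptgs2 probe set was dim (median 29.2 in blood, above the array median on 5 of 64 arrays) and called nothing.

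Ptges, which makes prostaglandin E2, was dim and not called in any comparison. Its brightest probe set lay above the array median on 29 of 64 blood arrays and 6 of 64 spleen arrays, its sham medians were 66 in blood and 38.3 in spleen, and its log2 changes ran from -0.87 to 0.84, 11 positive and 7 negative. In LPS blood at 2 hr it was 0.40 ± 0.44 (adjusted p = 0.713), and leaving out sham array 4 of that group brought it past the threshold (1.01, adjusted p = 0.0496).

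Hpgd, the enzyme that ends prostaglandin E2 signalling by oxidizing it, fell early after trauma-hemorrhage and LPS and at 1 day after burn. In trauma-hemorrhage spleen at 2 hr it read 302, 285, 222 and 168 on the injured arrays and 1782, 1591, 1457 and 1687 on the shams. Every injured array lay below every sham, and the log2 change was -2.62 ± 0.38 (6.12-fold lower, adjusted p = 1.12e-06). In blood of the same model and time it read 139, 93, 144 and 78.1 against 450, 355, 459 and 685 in the shams, again with no overlap (log2 change -1.83 ± 0.51, 3.55-fold lower, adjusted p = 0.028). The blood call was lost on leaving out any array except injured array 3 or sham array 2, the latter a dim array (log2 change -1.92 to -1.66, adjusted p = 0.0503 to 0.0913), with quantile normalization (-1.70, adjusted p = 0.0717) and with a pseudocount of 100 (-1.44, adjusted p = 0.069).

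At 2 hr after burn Hpgd was not called. Burn blood spread from 231 to 2751 around shams of 698 to 1292 (log2 change -0.30 ± 0.51, adjusted p = 0.877), and burn spleen read 413 to 1107 against 556 to 1098 (-0.38 ± 0.38, adjusted p = 0.674). In spleen the change at 2 hr differed between the injuries by 2.24 ± 0.54 on the log2 scale (adjusted p = 0.00997, where 2.19% of genes differed), a difference lost with quantile normalization (2.02, adjusted p = 0.0516). In blood the same difference was 1.52 ± 0.72 and was not called (adjusted p = 0.412).

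At 1 day Hpgd fell in both burn tissues. Burn spleen read 127, 192, 183 and 417 against sham values of 2824, 1780, 2803 and 2133, a log2 change of -3.29 ± 0.38 (9.81-fold lower, adjusted p = 1.92e-10). Injured arrays 1, 2 and 3 were dim, and array 4 alone against the shams gave -2.40 (5.29-fold, adjusted p = 0.00223), while quantile normalization gave -3.93. The spleen shams of this time were themselves high, since the other burn sham spleen groups ran from 556 to 1601. In burn blood at 1 day the arrays read 82.6, 240, 388 and 415 against 705, 1093, 1069 and 1264, a log2 change of -1.92 ± 0.51 (3.77-fold lower, adjusted p = 0.00281) with no overlap.

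Trauma-hemorrhage spleen at 1 day held 2 kinds of arrays for Hpgd. Arrays 1 and 2 read 1058 and 1145, inside the range of the shams (1885, 1701, 874 and 2099), and arrays 3 and 4, hybridized on the other day, read 109 and 144. The log2 change was -1.91 ± 0.38 (adjusted p = 0.00135), but -0.69 within the first hybridization day and -3.14 within the second. Without injured array 3 or 4 it was -1.39 or -1.49 (adjusted p = 0.0831 and 0.0618), and a fit on these groups alone did not call it (0.449). The burn fall in spleen at 1 day exceeded the trauma-hemorrhage one by 1.38 on the log2 scale (difference -1.38 ± 0.54, adjusted p = 0.0441, where 31.5% of genes differed). That call was lost without any of 10 of the 16 arrays, among them trauma-hemorrhage arrays 1 and 2 (-0.93 and -0.89), and with the dim arrays out (-0.49, adjusted p = 0.732).

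At 3 and 7 days Hpgd was not called against sham in either tissue of either model, with log2 changes between -0.49 and 0.42. In burn spleen at 7 days all 4 injured arrays (1113 to 1348) lay above the shams (778 to 1036), and a fit on these groups alone called that (0.42, adjusted p = 0.0288). Its change over the 4 times differed in burn spleen (adjusted p = 3.4e-07) and in trauma-hemorrhage spleen (adjusted p = 0.000323, where 8.27% of genes did), and was not called in burn blood (0.101) or trauma-hemorrhage blood (0.27).

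After LPS Hpgd was lower at 2 hr, the 1 call among the 9 genes in that arm. The LPS arrays read 26.8, 13.3, 4.61 and 52 and the shams 426, 144, 309 and 84.9, with no overlap (log2 change -2.15 ± 0.34, 4.45-fold lower, adjusted p = 0.00424). Since 3 of the 4 LPS values lay below the pseudocount of 32, the size depends on it. It was -3.44 with a pseudocount of 1, -1.35 with 100, -2.96 with the arrays scaled to the injury arrays and -3.29 with the Gapdh 3′ over 5′ signal (RNA quality) added to the fit. A fit on the 2 groups alone did not call it (adjusted p = 0.0885). At 1 day after LPS the order was turned, 219 to 265 against 108 to 204 in the shams, not called (log2 change 0.51 ± 0.34, adjusted p = 0.591). The change from sham at 1 day minus that at 2 hr was 2.67 ± 0.48 (adjusted p = 0.0343, where 0.231% of genes were called). This was lost without any of 11 of the 16 arrays (2.48 to 2.81, adjusted p = 0.0575 to 0.0985). It was also lost with the LPS arrays scaled to the injury arrays (3.55, adjusted p = 0.0616), a pseudocount of 1 (4.04, 0.0665) and quantile normalization (2.63, 0.0509). It was 3.8 with the Gapdh ratio as a covariate (adjusted p = 0.00272) and 1.74 with a pseudocount of 100 (0.0385). At 1 day the change after LPS exceeded that after burn by 2.43 ± 0.69 (adjusted p = 0.00699, where 18.7% of genes differed), and leaving out replicate 1 of the injured groups gave 1.98 (adjusted p = 0.0588).

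The second Hpgd probe set has a suffix that marks probes shared with other transcripts. It is annotated to the same source sequence as the first, so it is not an independent measure. When probe sets were tested one by one it gave calls in the same 6 comparisons. Its log2 changes were -1.99 in burn blood and -2.73 in burn spleen at 1 day, -2.14, -2.54 and -1.90 in trauma-hemorrhage blood at 2 hr and spleen at 2 hr and 1 day, and -1.98 in LPS blood at 2 hr. Of the monocyte markers, 3 of 4 tested were lower in burn blood at 1 day (summed signal 6016 to 8774 against 14550 to 19820 in the shams) and 3 of 4 in burn spleen (2685 to 7789 against 11580 to 12930). In those 2 comparisons 25.4% and 49.9% of all genes were called in either direction. At 2 hr after trauma-hemorrhage 1 of 4 was lower in spleen (5352 to 10320 against 8645 to 11640) and 1 of 4 in blood (12790 to 23810 against 10940 to 32170), and after LPS 0 of 4 (2117 to 3846 against 3277 to 5909). B cell markers were lower in burn blood at 1 day (4 of 5, summed signal 3444 to 4721 against 29400 to 33540), as were NK cell (4 of 4, 798.5 to 1533 against 5392 to 6950), T cell (4 of 7, 12550 to 17620 against 31810 to 38030) and eosinophil markers (2 of 3). Tissue macrophage markers were higher there (5 of 8 higher and 1 lower, 4533 to 12250 against 1289 to 2900). At 1 day in burn spleen B cell (4 of 5, 9587 to 13260 against 29100 to 33550), T cell (6 of 7, 19090 to 22470 against 40770 to 41720) and NK cell markers (4 of 4, 1353 to 1955 against 4944 to 5636) were lower. So were 4 of 8 tissue macrophage markers (9010 to 23260 against 18170 to 22750). The part of these cells in the Hpgd values was not tested.

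**Figure D2:**
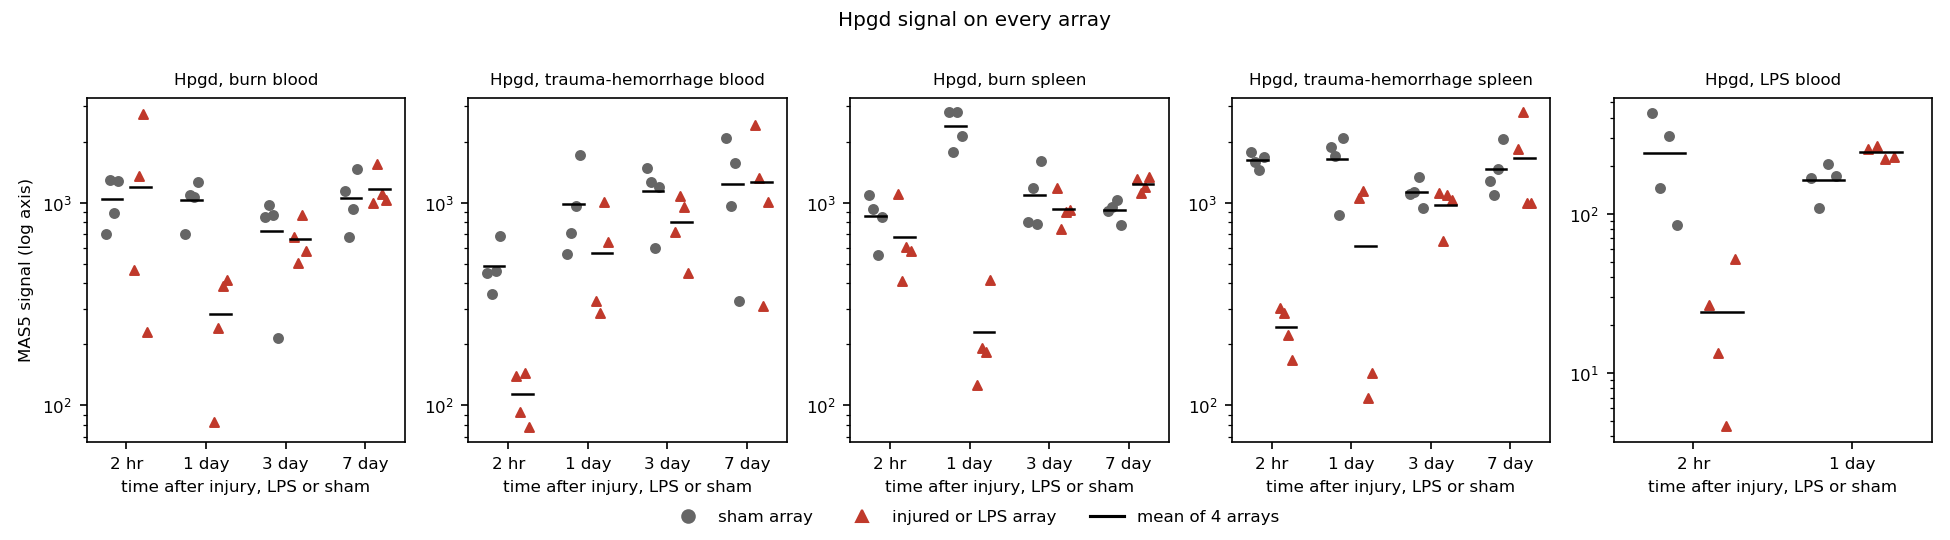
Hpgd signal on each array (log axis) by time, with grey circles for sham arrays, red triangles for injured or LPS arrays and bars for the mean of 4 arrays. The injured arrays lie apart below the shams at 2 hr in trauma-hemorrhage blood and spleen and in LPS blood, and at 1 day in burn blood and spleen, and the LPS panel has an axis of its own because its arrays were scaled otherwise.

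Alox5ap, the protein that presents arachidonic acid to the lipoxygenase, rose in 6 comparisons, all at 1 day or later. In burn blood it read 10190, 12650, 11970 and 11840 at 1 day against sham values of 5257, 4718, 5858 and 3701 (log2 change 1.27 ± 0.28, 2.4-fold, adjusted p = 0.000292). At 3 days it read 11210, 13020, 11700 and 14050 against 5887, 5065, 5251 and 4737 (1.25 ± 0.28, adjusted p = 0.00904). At 7 days it read 12200, 11360, 11660 and 11000 against 4422, 3144, 8313 and 4302 (1.28 ± 0.28, adjusted p = 0.00507). All 3 rises were of about the same size and no injured array overlapped a sham of its time. Leaving out injured array 4 at 3 days (1.19, adjusted p = 0.0544) or sham array 2 at 7 days (1.09, adjusted p = 0.0671) ended those calls.

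Alox5ap in trauma-hemorrhage blood was called at 1 day only. Its arrays read 13970, 23430, 12400 and 10500 against 6875, 3157, 7468 and 6621 (log2 change 1.32 ± 0.28, 2.5-fold, adjusted p = 0.000711). At 3 days the 4 injured arrays (10350 to 12070) still lay above the shams (6423 to 7683), but 0.64 ± 0.28 was not called (adjusted p = 0.115), and at 7 days, on arrays that were all dim, the change was -0.30 ± 0.28. The difference between burn and trauma-hemorrhage at 7 days was 1.59 ± 0.39 (adjusted p = 0.0226, where 2.35% of genes differed). It was lost without burn sham array 2, trauma-hemorrhage array 3 or trauma-hemorrhage sham array 2 or 3 (1.33 to 1.57, adjusted p = 0.053 to 0.113), with the control level as a covariate (1.43, 0.214), with the Gapdh ratio as one (1.61, 0.0527) and in a fit on those groups alone (0.0761). The change over time was called in trauma-hemorrhage blood (adjusted p = 0.0216, where 9.22% of genes were).

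In burn spleen Alox5ap ran below sham at 1 day and above it at 3 and 7 days. At 2 hr it read 742.3 to 1320 against 523.6 to 815.8 in the shams, with a higher mean after burn and no call. At 1 day it read 958, 859, 777 and 2102 against 1677, 1712, 1731 and 2323, just short of a call (log2 change -0.76 ± 0.33, adjusted p = 0.0503). A fit on those groups alone called it (0.0356), and without injured array 4, the 1 injured array that was not dim, it was called (-1.07, adjusted p = 0.0068). At 3 days it read 3637, 2663, 3339 and 2453 against 792, 1090, 1001 and 1410 (1.48 ± 0.33, 2.78-fold, adjusted p = 0.0159), and at 7 days 2991, 4287, 3544 and 4783 against 977, 1412, 1485 and 1313 (1.56 ± 0.33, 2.95-fold, adjusted p = 0.00031). Both later groups lay wholly above their shams, and the change over the 4 times was called (adjusted p = 0.000103). The call at 3 days was lost without injured array 1 or 3 or sham array 1 (1.35 to 1.42, adjusted p = 0.0513 to 0.132). No trauma-hemorrhage spleen group was called (log2 changes 0.03 to 0.54).

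At 1 day the change of Alox5ap in burn blood exceeded that in burn spleen by 2.02 ± 0.44 (adjusted p = 0.000709), or by 1.08 without the dim arrays (adjusted p = 0.529). Between the injuries the spleen change at 1 day differed by -1.30 ± 0.47 (adjusted p = 0.0281). It was lost without any of 6 arrays (-1.19 to -1.09, adjusted p = 0.0562 to 0.0739), with the control level as a covariate (-0.74, 0.291) and without the dim arrays (-0.35, 0.769). Those 6 were burn arrays 2 and 3, burn sham array 4, trauma-hemorrhage arrays 1 and 3 and trauma-hemorrhage sham array 1. After LPS its log2 change was not called (0.22 ± 0.23 at 2 hr and -0.13 ± 0.23 at 1 day), and the LPS change at 1 day lay below that of burn by 1.39 ± 0.39 (difference -1.39, adjusted p = 0.00574) and below that of trauma-hemorrhage (difference -1.45, adjusted p = 0.014, where 7.78% of genes differed). The latter was lost without injured replicate 1 or 2 or sham replicate 2 (-1.35 to -1.04, adjusted p = 0.0581 to 0.108) and with quantile normalization (-1.15, 0.0846).

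Alox5, the lipoxygenase itself, was called once, in burn blood at 7 days, where it read 1257, 986, 1217 and 763 against 281, 219, 620 and 283 in the shams. The groups did not overlap, and the log2 change was 1.58 ± 0.42 (3-fold, adjusted p = 0.0282). It was lost on leaving out any array except injured array 4 or sham array 3 (1.42 to 1.61, adjusted p = 0.0604 to 0.161), although each of the 12 settings kept it (highest adjusted p = 0.0397). Over the 18 comparisons its log2 changes ran from -0.81 to 1.58. The difference between the injuries at 7 days, 2.06 ± 0.59, was called narrowly (adjusted p = 0.0466). It was lost without any of 12 of 16 arrays (1.81 to 2.2, adjusted p = 0.0559 to 0.175). Further losses came with the control level (1.41, 0.445) or the Gapdh ratio (2.10, 0.108) as a covariate, with a pseudocount of 1 (2.19, 0.0567) and with every probe set tested (0.0582). In spleen the gene was dim (median 106, above the array median on 35 of 64 arrays). There burn at 1 day was called lower with quantile normalization (-1.32, adjusted p = 0.00986) and with the control level as a covariate (-1.55, 0.0243). Burn at 7 days was called higher in a fit on those groups alone (1.07, adjusted p = 0.0308).

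At least 1 neutrophil marker was higher in each comparison in which Alox5ap rose. Of the 6 tested, 3 were higher in burn blood at 1 day, 3 at 3 days and 4 at 7 days, and their summed signal was 90850 to 123500, 71960 to 107100 and 71540 to 103500 against shams of 44720 to 74060, 50290 to 70190 and 38550 to 61720. In trauma-hemorrhage blood at 1 day 3 of 6 were higher (88670 to 146300 against 54160 to 76750). In burn spleen 1 of 6 was higher at 3 days (41850 to 71640 against 19700 to 33500) and 5 of 6 at 7 days (43630 to 75710 against 20360 to 24260). None of the 6 was lower in those groups, and none of the markers was listed at 0. Of all genes 25.4%, 1.09% and 1.94% were called in either direction in burn blood at 1, 3 and 7 days. The share was 17.1% in trauma-hemorrhage blood at 1 day, and 0.556% and 16.3% in burn spleen at 3 and 7 days. Other lists moved too in burn spleen at 7 days. Erythroid (5 of 5, 27440 to 42660 against 1052 to 3206), mast cell and basophil (3 of 4, 909.5 to 2216 against 189.2 to 320.5), eosinophil (2 of 4, 2031 to 3606 against 471.6 to 800.2) and monocyte markers (1 of 4, 10530 to 13330 against 5728 to 7189) were higher. B cell (4 of 5, 15520 to 24780 against 33730 to 35970), T cell (6 of 7, 22330 to 30560 against 42730 to 48220) and NK cell markers (3 of 4, 2863 to 3732 against 5258 to 6278) were lower. The part of all these cells in the Alox5ap and Alox5 values was not tested.

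**Figure D3:**
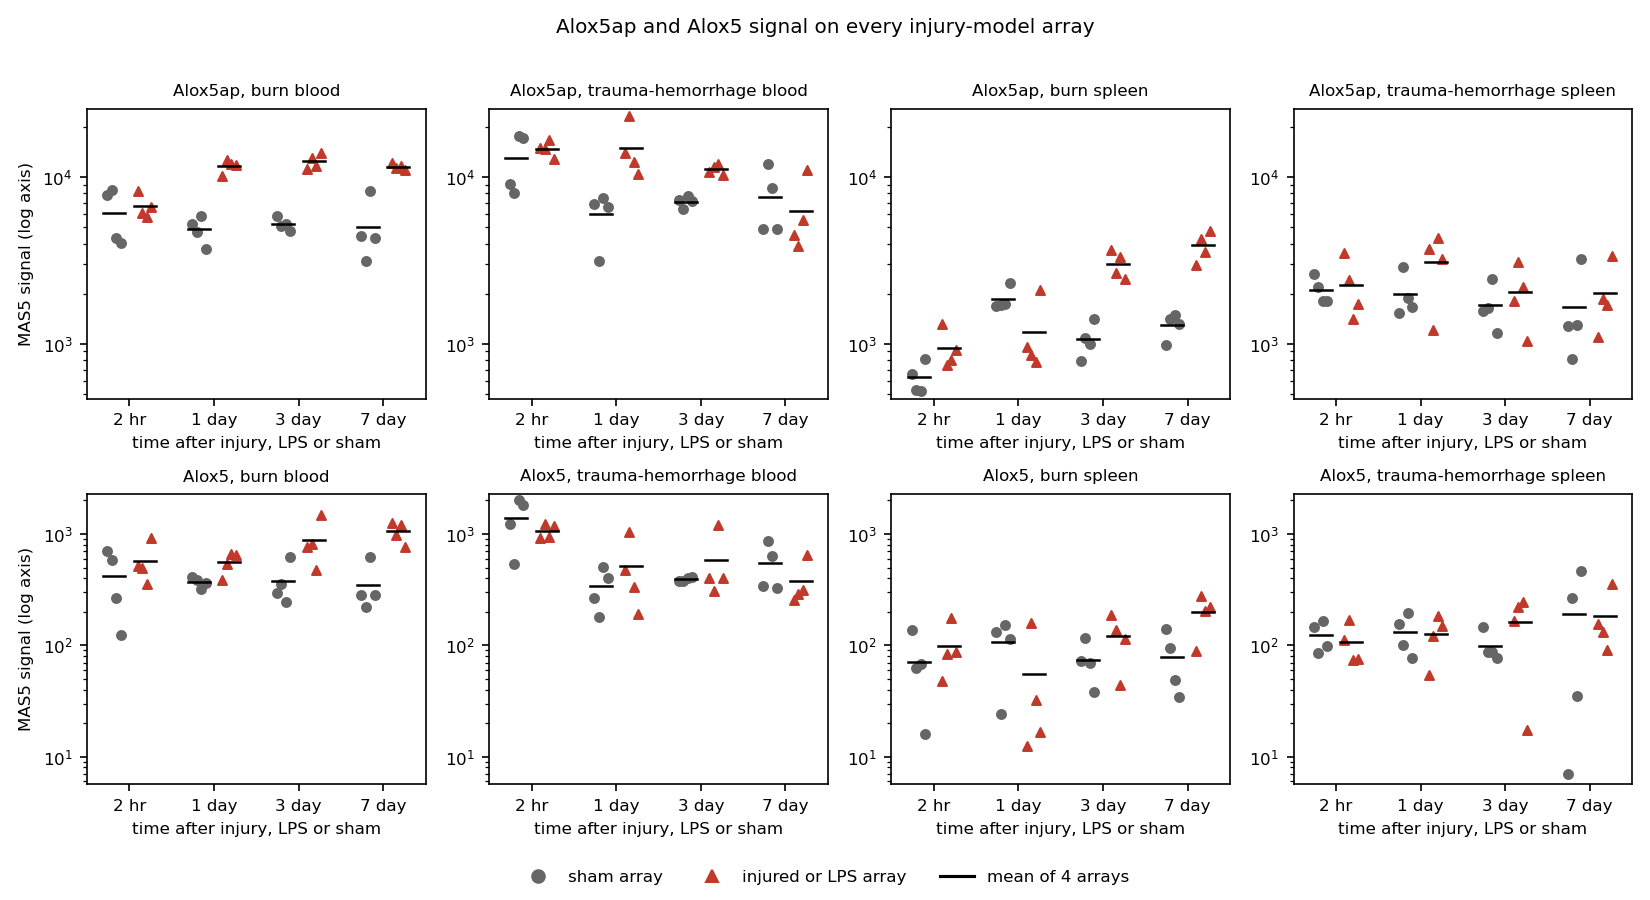
Alox5ap (top) and Alox5 (bottom) signal on each injury-model array (log axis) by time, with grey circles for sham, red triangles for injured arrays and bars for the mean of 4 arrays. Alox5ap stands above sham at 1, 3 and 7 days in burn blood and at 3 and 7 days in burn spleen.

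Lta4h, which makes leukotriene B4, was called in opposite directions in blood at 1 day. After burn it read 2350, 1659, 1181 and 1409 against 686, 772, 571 and 1054 (log2 change 1.06 ± 0.32, 2.08-fold, adjusted p = 0.00901), with no overlap. After trauma-hemorrhage it read 500, 350, 339 and 274 against 707, 1689, 407 and 966 (-1.15 ± 0.32, 2.22-fold lower, adjusted p = 0.00852), where injured array 1 lay inside the sham range. The 2 changes differed by 2.2 ± 0.45 (adjusted p = 0.000266, where 15.9% of genes differed), and this held with each of the 16 arrays left out.

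These values rest on 1 probe set of Lta4h. A second, dimmer one (median 125 in blood) gave 0.01 ± 0.38 after burn and -0.62 ± 0.38 after trauma-hemorrhage, and was not called. With the mean of all probe sets neither call stood (0.39, adjusted p = 0.197, and -0.40, 0.201), nor did the difference (0.79, 0.0665). Every mean of Lta4h probe sets in this report also takes in a further, very faint probe set. It lay above the array median on 0 of 64 blood and 0 of 64 spleen arrays (median signals 9.025 and 9.819). How much of the loss came from that faint probe set was not tested. The burn call was lost without injured array 1 (0.87, adjusted p = 0.0558), and the trauma-hemorrhage call without sham array 2 (-0.82, 0.0869), with quantile normalization (-0.88, 0.0631), with the control level as a covariate (-0.93, 0.0558) and in a fit on these groups alone (0.0723). At 1 day the LPS change minus the burn change was -1.20 ± 0.42 (adjusted p = 0.0344). It was lost without injured replicate 1, 2 or 4 or sham replicate 1 or 3 (-1.23 to -0.98, adjusted p = 0.0525 to 0.149) and with the mean of probe sets (-0.40, 0.381). In spleen no comparison was called (log2 changes -0.45 to 0.42) in the fit as reported. Burn spleen at 1 day was called higher with the control level as a covariate (0.79, adjusted p = 0.00613) and with the mean of probe sets (0.48, 0.0319).

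Ltb4r1, the leukotriene B4 receptor of neutrophils, rose in trauma-hemorrhage blood at 1 day and in burn spleen at 7 days. In the former it read 398, 1053, 297 and 262 against 158, 60.2, 204 and 127 (log2 change 1.52 ± 0.46, 2.88-fold, adjusted p = 0.0161). Array 2 was the highest injured and sham array 2 the lowest sham, and without either of them the call was lost (1.11, adjusted p = 0.133, and 1.26, 0.082). It was also lost with the Gapdh ratio as a covariate (1.06, adjusted p = 0.117) and was 2.17 with the control level as one. In burn spleen at 7 days it read 241, 213, 237 and 263 against 34.7, 81.6, 79.4 and 12 (1.79 ± 0.52, 3.46-fold, adjusted p = 0.0111), and without sham array 4 the change was 1.51 (adjusted p = 0.0652). With sham signals this low the size followed the pseudocount, at 2.51 with 1 and 1.18 with 100.

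In some other blood groups all injured arrays read above all shams for Ltb4r1 without a call, in trauma-hemorrhage at 3 days by a narrow margin. In burn blood it read 404 to 662 at 3 days against 113 to 198 (log2 change 1.58 ± 0.46, adjusted p = 0.0774) and 426 to 558 at 7 days against 132 to 245 (1.24 ± 0.46, adjusted p = 0.194). In trauma-hemorrhage blood at 3 days it read 218 to 596 against 76.9 to 215 (1.13 ± 0.46, adjusted p = 0.0939). The first was called with a pseudocount of 100 (1.28, adjusted p = 0.0426), without dim arrays (0.0116) and in a fit on its groups alone (0.0027). The second was called with the control level as a covariate (1.41, 0.04) and on its groups alone (0.006), and the third with that covariate (1.86, 0.00839). In trauma-hemorrhage spleen at 7 days the injured arrays (82.2 to 380.5) lay inside the sham range, and 1.26 ± 0.52 was not called (adjusted p = 0.139). Without sham array 4, which read 527 beside 10.3 to 18.4, the change was 2.17 and called (adjusted p = 0.000873). The change over the 4 times was called in burn spleen (adjusted p = 0.0218). At 1 day the spleen change after burn minus that after trauma-hemorrhage was -1.95 ± 0.74 (adjusted p = 0.0382), from groups with signals of 9.44 to 18.6 after burn and 61.2 to 203 after trauma-hemorrhage. It was lost without any of 10 of the 16 arrays (-1.94 to -1.58, adjusted p = 0.0547 to 0.11), with a pseudocount of 100 (-1.12, 0.0524), with the control level as a covariate (-1.70, 0.129) and without dim arrays (-2.05, 0.171), and was -3.28 with a pseudocount of 1. The LPS change at 1 day minus that of trauma-hemorrhage was -2.08 ± 0.65 (adjusted p = 0.0341). It was lost without injured replicate 1 or 2 or sham replicate 2 or 3 (-2.01 to -1.58, adjusted p = 0.0879 to 0.201) and with the Gapdh ratio (-1.64, 0.0882), and -2.82 with the control level.

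Ptger4, the EP4 receptor, rose in burn blood at 1 day and fell in trauma-hemorrhage blood at 1 and 3 days. After burn it read 11620, 12260, 14920 and 12390 against 8047, 6321, 5552 and 6949 (log2 change 0.93 ± 0.21, 1.91-fold, adjusted p = 0.000374). After trauma-hemorrhage at the same time it read 4534, 4359, 4226 and 4995 against 7053, 7320, 7611 and 7862 (-0.72 ± 0.21, 1.65-fold lower, adjusted p = 0.0122). Neither pair of groups overlapped, and the 2 changes differed by 1.65 ± 0.29 (adjusted p = 3.88e-05), a difference that held in all 12 settings and with each of the 16 arrays left out. With the mean of both probe sets the fall was not called (-0.32, adjusted p = 0.375). The dimmer probe set alone gave a rise of 1.24 ± 0.40 after burn (adjusted p = 0.0185 over all probe sets) and 0.07 ± 0.40 after trauma-hemorrhage (0.94).

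At 3 days after trauma-hemorrhage Ptger4 in blood read 2367, 5303, 4974 and 1750 against 6496, 5542, 7816 and 8600 (log2 change -1.11 ± 0.21, 2.16-fold lower, adjusted p = 0.000369). All injured arrays lay below all shams, but arrays 1, 2 and 4 were dim, and the 1 injured array left without them gave -0.49 (adjusted p = 0.591). A fit on the 2 groups alone did not call it either (adjusted p = 0.124). In spleen it rose at 2 hr after trauma-hemorrhage, 12230, 11970, 11390 and 13270 against 8522, 8843, 8219 and 7208 (0.58 ± 0.15, 1.49-fold, adjusted p = 0.0139), a call lost without injured array 4 (0.54, adjusted p = 0.0672) or sham array 4 (0.52, 0.0769). In burn spleen at 7 days all 4 injured arrays (5063 to 6020) lay below the shams (6514 to 7363), not called (log2 change -0.36 ± 0.15, adjusted p = 0.0946). That fall was called with quantile normalization (-0.38, adjusted p = 0.0107), in a fit on those groups alone (0.0137), with the control level as a covariate (0.0294) and without dim arrays (0.0133). In trauma-hemorrhage the calls were thus higher in spleen at 2 hr and lower in blood at 1 and 3 days.

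The change of Ptger4 over time was called in burn blood (adjusted p = 0.00956), trauma-hemorrhage blood (0.0157) and trauma-hemorrhage spleen (0.0413). Blood and spleen differed at 1 day after burn (1.10 ± 0.26, adjusted p = 0.00181, and 0.90, 0.0543 without dim arrays) and at 3 days after trauma-hemorrhage (-0.93 ± 0.26, adjusted p = 0.0156, where 5.83% of genes did). The latter was lost without injured replicate 1 or 4 or sham replicate 1 (-0.90 to -0.62, adjusted p = 0.0617 to 0.299), without dim arrays (-0.31, 0.714), with the control level as a covariate (-0.77, 0.0574) and in a fit on those groups alone (0.241). After LPS the arrays read 729 to 1123 at 1 day against 472 to 721, with no overlap and no call (0.53 ± 0.17, adjusted p = 0.33), and this change exceeded that after trauma-hemorrhage by 1.25 ± 0.29 (adjusted p = 0.00455), or by 0.85 with the mean of probe sets (0.0785).

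Some T cell markers were called in the same direction as Ptger4 in trauma-hemorrhage blood and in the opposite direction in burn blood at 1 day. Of all genes 17.1% and 12.4% were called in either direction in trauma-hemorrhage blood at 1 and 3 days, and 25.4% in burn blood at 1 day. Injured arrays 1, 2 and 4 of trauma-hemorrhage blood at 3 days were dim. Of 7 tested, 4 were lower after trauma-hemorrhage at 1 day (summed signal 18860 to 31750 against 29760 to 40040), 2 at 3 days (12910 to 29830 against 30220 to 40430) and 4 after burn at 1 day (12550 to 17620 against 31810 to 38030). Platelet markers were higher in trauma-hemorrhage blood at 1 day in 7 of 7 (143300 to 168300 against 45420 to 73770) and at 3 days in 3 of 7 (121800 to 217000 against 64140 to 111600), and in burn blood at 1 day in 0 of 7 (30900 to 47110 against 36770 to 43210). Erythroid markers were higher too, 4 of 5 at 1 day (74800 to 105000 against 29400 to 54760) and 3 of 5 at 3 days (53260 to 182200 against 27990 to 99850) after trauma-hemorrhage. The part of these cells in the Ptger4 and Lta4h values was not tested. B cell, NK cell and monocyte markers of trauma-hemorrhage blood at 1 and 3 days are not given here.

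Ptger2, the EP2 receptor, was called in none of the 18 comparisons, and its log2 changes ran from -0.88 (burn blood at 2 hr, 260 ± 39 against 533 ± 199, adjusted p = 0.281) to 0.75 (burn blood at 3 days, 464 ± 366 against 225 ± 75, adjusted p = 0.579). It lay above the array median on all 64 blood arrays and on 59 of 64 spleen arrays. With quantile normalization it was called lower in burn spleen at 1 day (-0.76, adjusted p = 0.0169), where 3 of the 4 injured arrays were dim.

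**Figure D4:**
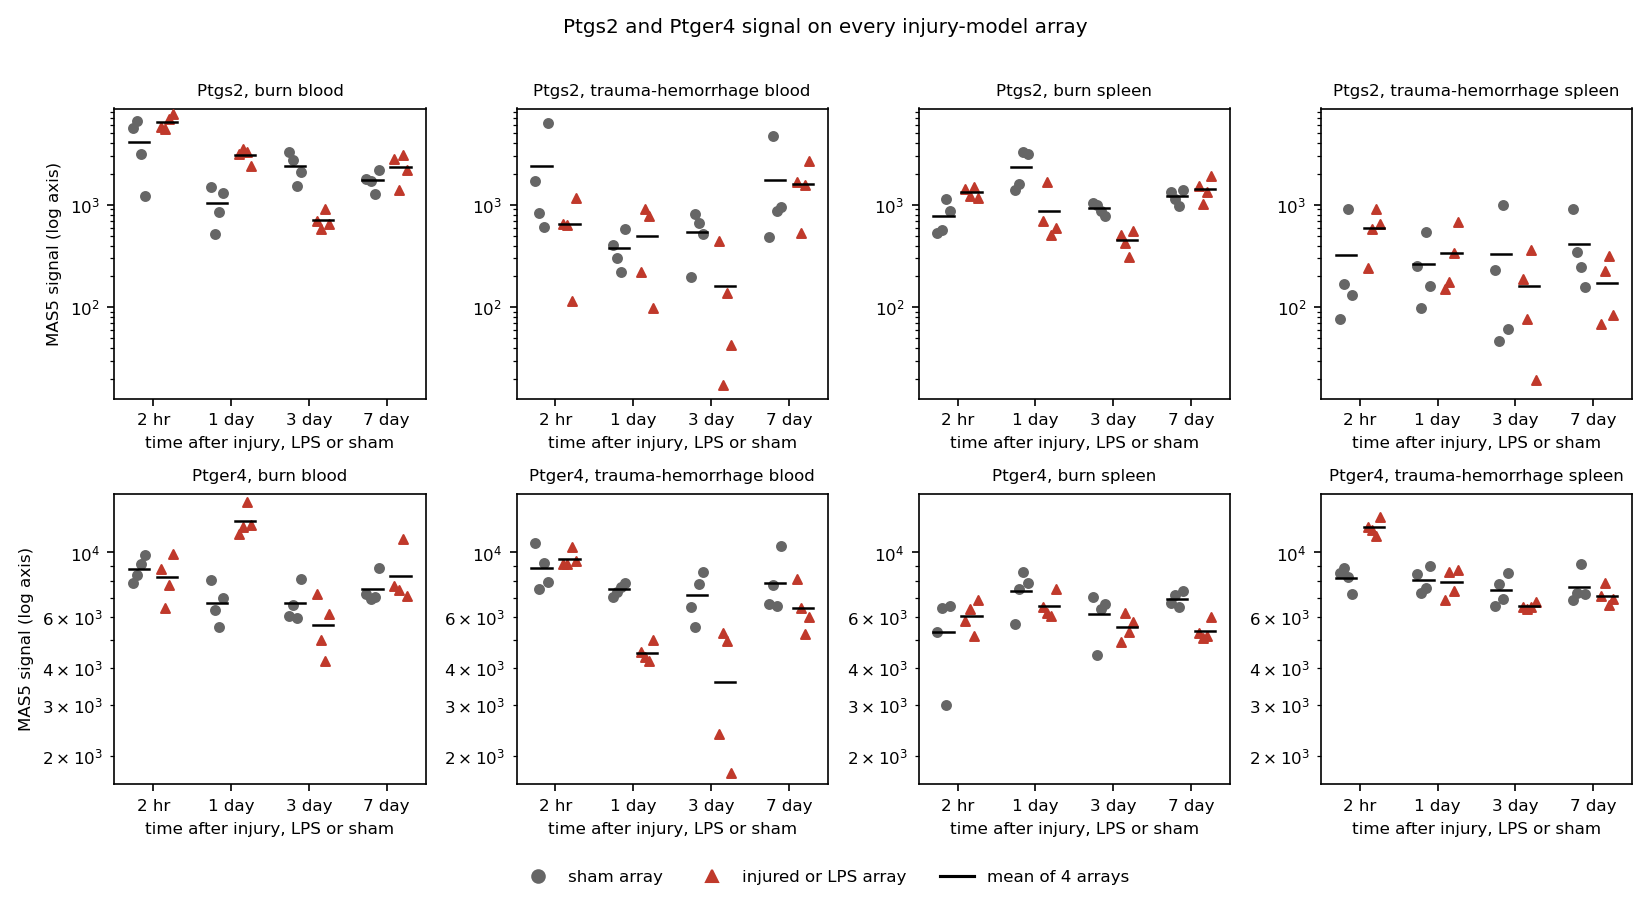
Ptgs2 (top) and Ptger4 (bottom) signal on each injury-model array (log axis) by time, with grey circles for sham, red triangles for injured arrays and bars for the mean of 4 arrays. Ptger4 in blood at 1 day lies above sham after burn and below it after trauma-hemorrhage, and Ptgs2 shams spread most at 2 hr in blood.

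Without injury the 2 tissues differed in most of these genes. Over the 32 sham blood and 32 sham spleen arrays Alox5ap was higher in blood by 2.14 ± 0.11 on the log2 scale (median signal 6155 against 1506), Alox5 by 1.91 ± 0.17 (384 against 90.8), Ltb4r1 by 1.33 ± 0.18 (162 against 26.5) and Ptgs2 by 1.14 ± 0.21 (1239 against 820.1). Smaller differences were Ptger2 (0.53 ± 0.13, adjusted p = 0.000217) and Ptges (0.47 ± 0.19, adjusted p = 0.0326). Hpgd was lower in blood (-0.56 ± 0.16, adjusted p = 0.0023, 948 against 1228), Lta4h slightly so (-0.26 ± 0.11, adjusted p = 0.0267), and Ptger4 did not differ by the test (0.10 ± 0.06, adjusted p = 0.158). In this comparison 55% of 15637 genes were called, and each of the 8 hybridization days held 1 tissue. The day as a random block, an alternative chosen after seeing the data, gave a correlation of -0.002 between arrays of a day. That fit therefore nearly repeats the main one. All 8 calls stood in it (highest adjusted p = 0.0307), which does not separate tissue from day. The day as a fixed block takes out only the difference between the 2 days within each model and tissue. The Lta4h call was lost with quantile normalization (-0.10, adjusted p = 0.534), the mean of probe sets (-0.14, 0.0779) or the fixed day block (-0.21, 0.174) and without sham replicate 1 or 3 (-0.23 and -0.18). The Ptges call was lost with the mean of probe sets (0.06, adjusted p = 0.712) or the fixed day block (0.29, 0.309) and without sham replicate 2, 3 or 4 (0.42 to 0.44). Ptgs2 was 0.54 with the mean of probe sets, and Ltb4r1 2.15 with a pseudocount of 1.

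**Figure D5:**
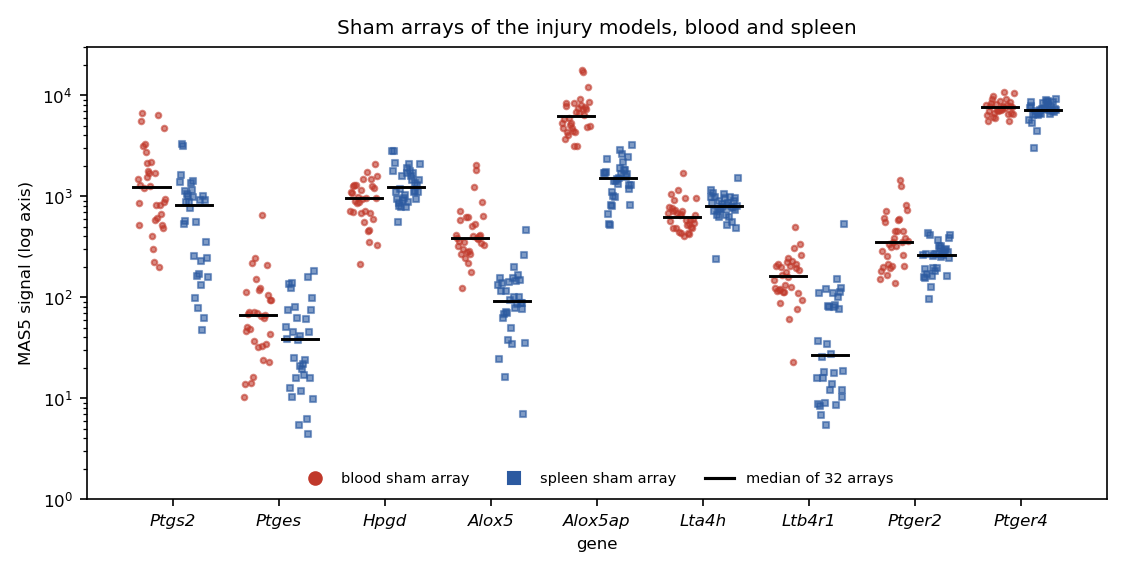
Signal of each gene (log axis) on the 32 sham blood arrays (red circles) and 32 sham spleen arrays (blue squares) of the injury models, with bars at the medians. Alox5ap, Alox5 and Ltb4r1 lie higher in blood, and heights should be compared between tissues for a gene, not between genes, whose probes differ in brightness.

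Of 48 further genes of these pathways (phospholipases, other synthases, transporters, receptors and breakdown enzymes) 42 were on the array, of which 34 entered the blood tests, 33 the spleen tests and 26 those of LPS. In burn blood at 1 day 1 was higher and 4 were lower, with a median log2 change of -0.10 over the 34, where 25.4% of all genes were called, so the calls are not more frequent in this list. Those that fell included Ptgr2, a reductase that helps to inactivate prostaglandins (332 ± 186 against 1660 ± 211, log2 change -2.46, adjusted p = 1.92e-10), Mgst2, which can make leukotriene C4 (359 ± 57.7 against 1477 ± 179, -1.95), and Cbr1, which reduces prostaglandin E2 (125 ± 111 against 384 ± 80.2, -1.70), and Ptgis, prostacyclin synthase, rose (2.82 ± 0.84, adjusted p = 0.00814). In burn spleen at 1 day 4 of 33 were higher and 5 lower, a smaller share than the 49.9% of all genes called there. Among them Ptgr2 (-1.82), Mgst2 (-2.05), Cyp4f18, which breaks down leukotriene B4 (-1.59), and Prxl2b (-1.83) had the smallest adjusted p.

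In trauma-hemorrhage blood at 1 day 5 of 34 were higher and 1 lower, where 17.1% of all genes were called. Tbxas1, thromboxane synthase (2109 ± 684 against 525 ± 161, log2 change 1.92, adjusted p = 8.56e-06), Ptger3, the EP3 receptor (2.92, adjusted p = 1.64e-05), Pla2g12a, a secreted phospholipase (1.54), and Alox12, the platelet lipoxygenase (27620 ± 4091 against 9290 ± 1850, 1.58, adjusted p = 0.00682), rose at the same time as all 7 platelet markers and 4 of 5 erythroid markers, whose part was not tested. At 3 days 4 were higher and 1 lower (12.4% of all genes called), with Tbxas1 (1.66), Mgst3 (1.92), Abcc4, a prostanoid exporter (1.07), and Pla2g12a (1.28) first. At 7 days 1 was called, Mgst3, which was higher (1.53), where 8% of all genes were called.

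In burn spleen at 7 days 6 of 33 were higher and 0 lower, where 16.3% of all genes were called: Mgst3 (1388 ± 580 against 88.4 ± 29.4, log2 change 3.47, adjusted p = 1.04e-06), Ptgr1, which inactivates leukotriene B4 and prostaglandins (1.96), Pla2g4a, the cytosolic phospholipase that frees arachidonic acid (1.06 ± 0.27, adjusted p = 0.00306), and Pla2g12a (1.42) had the smallest adjusted p. All 5 erythroid markers and 5 of 6 neutrophil markers were higher in the same arrays, and their part was not tested. Trauma-hemorrhage spleen had 5 higher and 1 lower at 3 days, led by Pla2g12a (1.83), Ptgr1 (1.48) and Pla2g4a (1.13), with Cyp4f18 lower (-0.85), where 7.56% of all genes were called. At 7 days it had 4 higher and 1 lower (7.85% of all genes), led by Pla2g12a (1.84), Mgst3 (2.38) and Ephx2 (1.56), with Ptgis lower (-1.35). Burn blood at 7 days had 1 higher (1.94% of all genes called), Pla2g7 (1.82). LPS blood at 2 hr had 1 higher (1.88% of all genes), Abcc1, a leukotriene C4 exporter (0.83 ± 0.20, adjusted p = 0.038), and in the other 8 comparisons limma called 0.

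The genes whose changes ran most like each member's were found by Pearson's r of the log2 changes over the 18 comparisons, among 10916 genes tested in all fits. For Hpgd they were Idh1 (0.85), Atg4c (0.84) and Tifab (0.84), and for Alox5ap Rab31 (0.88), Msrb1 (0.88) and S100a6 (0.88). Alox5 ran most like Pygl (0.91), Csf3r (0.91) and Rab31 (0.90), and Ltb4r1 most like Hacd4 (0.89), F13a1 (0.86) and Dnase1l1 (0.80). For Ptgs2 the closest were Pmaip1 (0.79), Zfp36 (0.76) and Lacc1 (0.76), and for Ptger4 Snrnp200 (0.88), Dcaf7 (0.84) and Supv3l1 (0.84). For Lta4h they were Dcaf5, Clk3 and Dlst (0.86 to 0.84), for Ptges Ndn, Antxr1 and P4htm (0.84 to 0.71) and for Ptger2 Krr1, Ms4a2 and Glipr1 (0.80 to 0.68). Among the 9 genes themselves the closest pairs were Alox5ap with Ltb4r1 (0.79) and with Alox5 (0.77), and the most opposed pair was Ltb4r1 with Ptger4 (-0.49). These are descriptions over comparisons whose points share tissues and arrays' depth of signal, and carry no test.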

How the data were processed

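The deposited values are MAS5 signal intensities on a linear scale, made with GCOS 1.4, per the submitters' processing notes. The authors' scaling step is not given in the sources used here; injury arrays shared a 2% trimmed mean of 500 and LPS arrays did not. Per the series' design text each array held an individual mouse. Whether a blood and a spleen array came from the same mouse was not checked. All fits over both tissues took the arrays as independent. One probe set stood for a gene: the brightest over the injury arrays among those with that single symbol, identifiers without _s or _x first. Of 45037 probe sets, 34945 had 1 symbol, 932 several and 9160 none. Values were tested as log2(signal + 32) with limma 3.58.1 in R 4.3.3 (lmFit, eBayes with trend), separately over 64 blood, 64 spleen and 16 LPS arrays, and over 128 arrays for the 2 tissues and 80 for LPS against injury in blood. A gene entered a fit if it exceeded the array median on at least 4 of its arrays. Changes over time were F tests of injury by time. The test was checked on simulated data with independent normal noise, for burn blood at 2 hr only. The spleen, LPS and joint fits and the effect of dim arrays were not checked this way.

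The 10 genes, the wider list of 48 and the marker lists were chosen with earlier results of these data known. All members are named, and of the wider list up to 4 genes per comparison with the smallest adjusted p. Alternatives were pseudocounts of 1 and 100, no filter, quantile normalization, the mean of probe sets, every probe set tested, hybridization day or replicate number as a fixed block, the day as a random block for the sham tissues (duplicateCorrelation, chosen after seeing the data), groups fitted alone, a covariate (control level, or Gapdh 3′ over 5′ signal), rescaled LPS arrays, leaving out dim arrays and leaving out each array. In the fits over 128 and 80 arrays, all injured and LPS arrays, or all sham arrays, of a replicate number were left out together. The arrays were treated as unpaired. In 0 of 18 comparisons did all same-numbered arrays correlate above 0.1 (range -0.467 to 0.526). That check cannot show that the arrays are unpaired. Promoters are RefSeq's (GRCm38.p6), 250 bases before the start.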

Additional observations from a re-analysis of the deposited data

Results flagged for a closer look

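In 324 groups of 4 arrays, 13 held an array far from the other 3, and chance flags about 1 in 20. For Hpgd these were replicate 4 of burn sham blood at 3 days (213.9, the others 851 to 980.7) and replicate 2 of trauma-hemorrhage spleen at 3 days (651.3). Replicate 1 of LPS sham blood at 2 hr stood apart for both Alox5 (93.97, the others 386 to 473) and Alox5ap (1022, the others 2088 to 2178). Alox5ap also had replicate 4 of burn sham spleen at 1 day (2323) and replicate 2 of trauma-hemorrhage sham blood at 1 day (3157, the others up to 7468). Lta4h had replicate 2 of burn blood at 7 days (887.9). Ltb4r1 had replicate 1 of burn spleen at 2 hr (58.93) and replicate 4 of trauma-hemorrhage sham spleen at 7 days (527.4, the others at most 18.4). Ptger2 had replicate 3 of burn spleen at 7 days (228.8) and replicate 4 of trauma-hemorrhage sham spleen at 3 days (161). Ptger4 had replicate 3 of burn blood at 7 days (11090) and replicate 4 of burn sham blood at 7 days (8821).

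Another 29 results are differences of a change from sham between groups, each past the test of the difference itself. Between burn and trauma-hemorrhage in blood they were Lta4h (2.204) and Ptger4 (1.651) at 1 day and Alox5 (2.06) and Alox5ap (1.585) at 7 days, on the log2 scale. In spleen they were Hpgd at 2 hr (2.237) and Alox5ap (-1.297), Hpgd (-1.381) and Ltb4r1 (-1.946) at 1 day. Between blood and spleen they were Ptgs2 (3.091), Alox5ap (2.022) and Ptger4 (1.096) at 1 day after burn and Ptger4 (-0.927) at 3 days after trauma-hemorrhage. For LPS minus burn at 1 day they were Hpgd (2.428), Alox5ap (-1.393) and Lta4h (-1.2), and for LPS minus trauma-hemorrhage Ptger4 (1.251), Alox5ap (-1.45) and Ltb4r1 (-2.076).

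Changes over time gave adjusted p-values from limma's F test. In burn blood these were 0.009561 for Ptger4 and 0.02484 for Ptgs2. In trauma-hemorrhage blood they were 0.02157 for Alox5ap and 0.0157 for Ptger4. In burn spleen they were 0.0001025 for Alox5ap, 3.397e-07 for Hpgd, 0.02182 for Ltb4r1 and 0.04592 for Ptgs2, and in trauma-hemorrhage spleen 0.0003226 for Hpgd and 0.04133 for Ptger4. After LPS the change of Hpgd from 2 hr to 1 day was 2.666.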

How the results depend on the processing

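Of the 24 calls against sham, 13 were kept under every planned setting, 10 with every left-out array and 7 under both, and 0 reversed. The count of called members changed most in burn spleen, from 5 to 8 with quantile normalization, 10 in fits on the groups alone and 8 with the control level as a covariate. In trauma-hemorrhage blood it went from 7 to 4 with the mean of all probe sets and to 4 in fits on the groups alone, and in LPS blood from 1 to 0 in such fits. Differences between burn and trauma-hemorrhage went from 8 to 5 with the control level as a covariate, and those between blood and spleen from 4 to 7 with quantile normalization and to 2 without dim arrays. The cause of these shifts was not tested. Leaving out each array in turn gave 6 to 8 calls in burn blood, 5 to 7 in trauma-hemorrhage blood, 4 to 7 in burn spleen, 2 to 4 in trauma-hemorrhage spleen and 1 to 2 in LPS blood. It gave 5 to 9 for burn against trauma-hemorrhage, 9 to 13 for change over time, 3 to 6 for blood against spleen, 6 to 8 for the sham tissues and 2 to 6 for LPS against injury. With the replicate number as a block, which rests on a shared number only (correlations of -0.467 to 0.526), the counts were 8, 7, 5, 3 and 1 for burn blood, trauma-hemorrhage blood, burn spleen, trauma-hemorrhage spleen and LPS blood, and 7, 10, 4, 8 and 6 for those differences in the order just given. This block ended the calls of Alox5 for burn minus trauma-hemorrhage in blood at 7 days (adjusted p = 0.053) and of Hpgd over time after LPS (0.0539). With the hybridization day as a random block (correlation -0.002), chosen after seeing the data, the sham tissues kept all 8 calls. With so small a correlation that fit nearly repeats the main one. The hybridization day as a fixed block and leaving out dim arrays could not be run for the LPS arm, where no day is given and no array was dim. Ptges lay above the array median on 29 of 64 blood and 6 of 64 spleen arrays. In spleen Alox5 did so on 35 and Ltb4r1 on 27 of 64. Whether such low signal limited the calls was not tested.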
